A study of Homo sapiens with 8 samples.

Results

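The response of HepG2 cells to GSK343 was read from 4 one-colour microarrays of a series of 8, the other 4 being of the line PLC/PRF/5, written PLC5. Members were chosen by their labels: 2 arrays of HepG2 cells given 10 µM GSK343 for 16 h and 2 arrays of HepG2 control cells labelled with the same time. Their treatment protocol names 6 h instead, and the exposure time carries that reservation, and the vehicle of the control cells is not given in the sources used here. HepG2 is an established human liver cancer line that secretes many plasma proteins, and both groups were of this 1 line without any genetic change named in the labels. The PLC5 arrays, 2 of control cells and 2 of cells given 10 µM GSK343, entered the fit and 1 comparison. Whether replicate arrays stem from distinct cultures is not stated in the labels, and the p-values therefore measure only how these arrays vary, which may be technical. The series asks which genes respond to GSK343 in these lines.

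GSK343 is a small molecule that competes with the methyl donor at EZH2, the enzyme of the Polycomb repressive complex PRC2. PRC2 places methyl groups on lysine 27 of histone H3, a mark of silenced genes that is set early in development and is lost slowly once the enzyme stops. In liver cancer cells EZH2 is commonly high, and genes named as its targets include cell cycle inhibitors and antagonists of Wnt signalling.

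The deposited intensities were linear and not scaled between arrays, with medians of 239 and 226 in the HepG2 controls and 313 and 341 in the treated cells, so all levels below are intensities after quantile normalization over the 8 arrays. Changes are differences of mean log2 intensity, treated minus control, given with the standard error of the fit and n = 2 arrays in each group. A gene was called when the p of limma's moderated test, adjusted by Benjamini-Hochberg over all 31741 probes, was under 0.05. A level above 64 in both HepG2 groups was taken as bright enough to weigh. Arrays of 1 group correlated at r = 0.984 for controls and 0.988 for treated cells over all probes, and arrays of different groups at 0.978 to 0.982. All 14 measured hepatocyte markers lay above 64 on every HepG2 array, with a summed level of 1649832 to 1727322 in controls and 1809226 to 1819270 in treated cells. Their median change was 0.05, or -0.19 when arrays were centred on their median instead. FGB, the only hepatocyte marker called, was lower (-0.40 ± 0.09). Of the leukocyte markers, 11 of 14 lay above 64, with a summed level of 15742 to 17324 in controls and 13326 to 14103 in treated cells, while the defining members PTPRC (26.8 and 21.2 against 31 and 8.5) and CD3E (34.8 and 41.8 against 26.1 and 18.1) were dim. FCER1G, the only leukocyte marker called, read 492 and 514 in controls and 324 and 323 in treated cells (-0.63 ± 0.14). Its call was lost without each HepG2 array in turn. Of the fibroblast markers, 8 of 10 lay above 64, with a summed level of 18696 to 18947 in controls and 19190 to 20098 in treated cells. COL3A1 (15 and 24.4 against 13.1 and 29) and DCN were dim, while PDGFRB was called lower (-0.77 ± 0.15) and FBLN1 higher (0.53 ± 0.14), both lost without some arrays (highest adjusted p = 0.117 and 0.237). Of 10 endothelial markers, 7 and 8 lay above 64 on the control arrays and 9 on each treated array, with sums of 1878 to 2093 and 2344 to 2373. None of them was called. CDH5 read 682 and 450 in controls and 889 and 944 in treated cells (0.72 ± 0.19, adjusted p = 0.054), and LYVE1 was dim (-0.17 ± 0.35). The labels name only cells of the HepG2 line in these arrays, and the source of signal from markers of other cell types was not tested.

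Treated HepG2 cells differed from controls in genes of many kinds. A metallothionein gene and 2 cytokine-related genes had the largest called rises outside the sterol, fatty acid and stress lists set aside below. A part of the genes that report growth factor signalling (10 of 24 bright members) and mechanical signalling (10 of 31) fell, as did a glucose carrier, a keratin and S100A2. Of all 31741 probes, limma called 8.1% (4.85% higher and 3.25% lower), and of all 18336 genes 8.8% (5.35% higher and 3.45% lower). Of the 14755 genes above 64, it called 1456 (9.87%), 869 higher (5.89%) and 587 lower (3.98%). The counts of every list below are to be read beside these shares. Their median change was 0.77 among the genes called higher and -0.61 among those called lower, on the log2 scale. Both treated arrays lay above both controls in 4498 of these genes (30.5%) and below both in 4912 (33.3%), so arrays that do not overlap are common among genes that were not called. All 1456 called genes had arrays that did not overlap, so this trait is not a further check of a call. A change of over 2-fold was found for 195 of the genes called higher and 63 of those called lower. The balance of rises and falls rested on the scaling: with arrays centred on their median the same rule gave 516 higher and 675 lower, and without normalization, where the median of all probes lay at 0.50, it gave 3373 higher and 51 lower.

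The number of calls also fell when an array was left out. Leaving out an array leaves its group without a replicate, which makes the test weaker. Calls can be lost through this alone, so a lost call, here or below, does not show that the change depended on that array. Why calls were lost was not tested. Without the first or the second treated array, 255 and 327 of the 1456 calls were kept, and without the first or the second control array 534 and 327. A set of 186 genes, 130 higher and 56 lower, were called whichever of the 8 arrays was left out. Most called genes given with all 4 array values below come from this set, a choice made after their values were seen. For most called genes outside it that the results describe, the highest adjusted p that leaving out an array produced is given. It is not given for FGB, FCER1G, UBD, SLC7A11, PLIN2, RHPN1-AS1, SYNPO2 and FGF14, whose calls were also lost without at least 1 array. Sterol and fatty acid synthesis and the integrated stress response were set aside as known responses of these arrays: 18 of 20 cholesterol genes and 18 of 55 stress response genes were called higher, and outside these lists 815 genes were higher and 584 lower. At the brightness limit, CIITA (59.8 and 68.8 in controls) and RHPN1-AS1 (76.2 and 55.6) lay just inside, and SYNPO2 (74.5 and 52.4 in controls) and FGF14 (59 and 68.9 in treated cells) just outside.

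**Figure D1:**
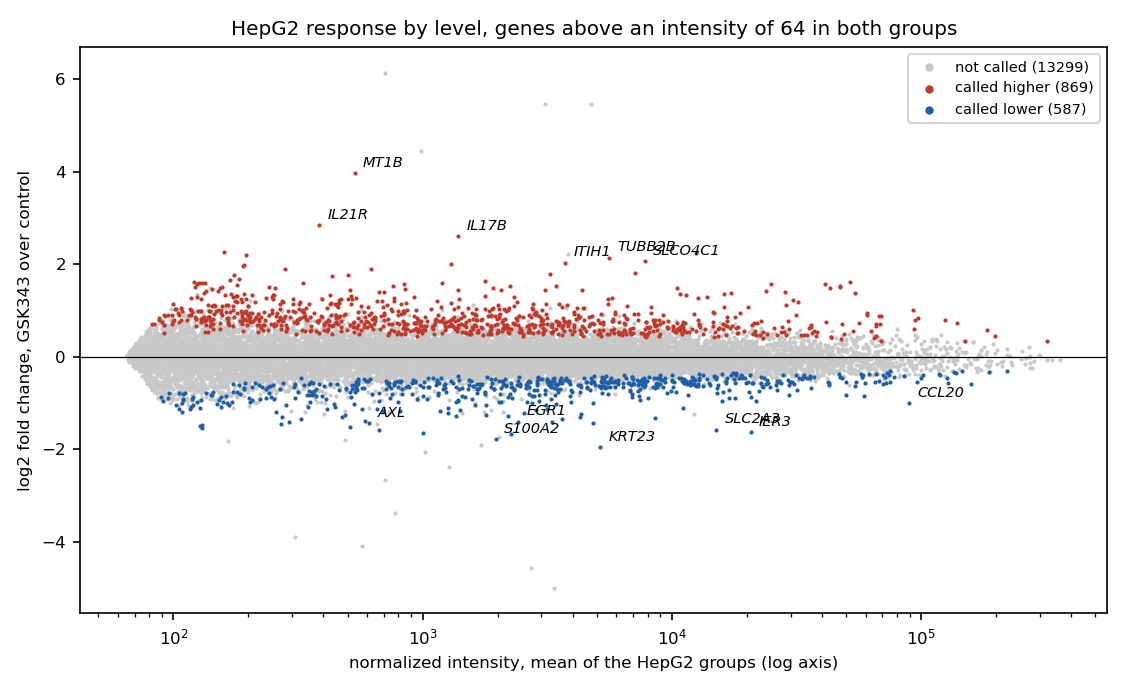
Log2 fold change of treated over control HepG2 cells (vertical axis) against the mean normalized intensity of the groups (horizontal log axis) for 14755 genes above 64, each point 1 gene represented by its brightest probe. The 869 genes called higher and 587 called lower spread over the whole range of levels. Most of the few grey points with a change of over 4-fold come from probes on which 1 array stood apart from the other of its group.

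The largest called rise among bright genes outside the lists set aside was that of MT1B, a metallothionein. It read 141 and 129 in the controls and 2047 and 2179 in treated cells, a change of 3.97 ± 0.14 (adjusted p = 2.39e-05). IL21R, the receptor chain for interleukin 21 known mainly from lymphocytes, read 153 and 135 in controls and 1031 and 1029 in treated cells (2.84 ± 0.16, adjusted p = 0.000394). IL17B, a secreted cytokine of the interleukin 17 family, went from 542 and 590 to 3812 and 3077 (2.60 ± 0.20, adjusted p = 0.000591). The treated arrays lay above the controls in each of these genes, as in every bright gene called higher, and the 2 treated arrays of IL21R were almost equal. The level of the interleukin 21 gene itself was near the background (6.75 and 21.2 against 13.1 and 19.2), while IL17RB, a receptor chain for IL17B, was bright and gave -0.43 ± 0.12 without a call (adjusted p = 0.0602).

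The other large rises were in genes of several kinds, among them an organic anion carrier and metabolic enzymes. Of 313 bright SLC genes, the SLCO genes not counted, 24 were called higher and 13 lower. The shares of all bright genes were 5.89% and 3.98%. SLCO4C1, an organic anion carrier best known from kidney, read 3530 and 4088 in controls and 17662 and 14472 in treated cells (2.07 ± 0.16, adjusted p = 0.000591), and its second, dimmer probe gave 2.06 ± 0.28. ACSM5, a mitochondrial enzyme that activates medium-chain fatty acids, read 108 and 76.9 in controls and 385 and 458 in treated cells (2.20 ± 0.21, adjusted p = 0.00143). SLC66A3, a membrane protein of the PQ-loop family, read 88.9 and 59.1 in controls, 1 of them below 64, and 337 and 361 in treated cells (2.27 ± 0.23). PRSS8, the membrane-bound serine protease prostasin, went from 307 and 336 to 1265 and 1136 (1.90 ± 0.14, adjusted p = 0.000525). RASA4, a calcium-dependent GTPase activator that turns Ras off, went from 153 and 137 to 519 and 560 (1.90 ± 0.12, adjusted p = 0.000394), although RASA4 has near-identical copies that a probe may not tell apart. DHFR2, a copy of dihydrofolate reductase, gave 1.77 ± 0.19 on its representing probe and 0.51 ± 0.35 on its second probe, which was not called, so its rise rested on 1 probe. DIPK1B and the antisense RNA SNAI3-AS1 rose by 1.98 ± 0.21 and 1.97 ± 0.15. BMPR1A, a receptor for bone morphogenetic proteins, gave 1.76 ± 0.30, a call lost without the first treated or second control array (highest adjusted p = 0.0691).

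**Figure D2:**
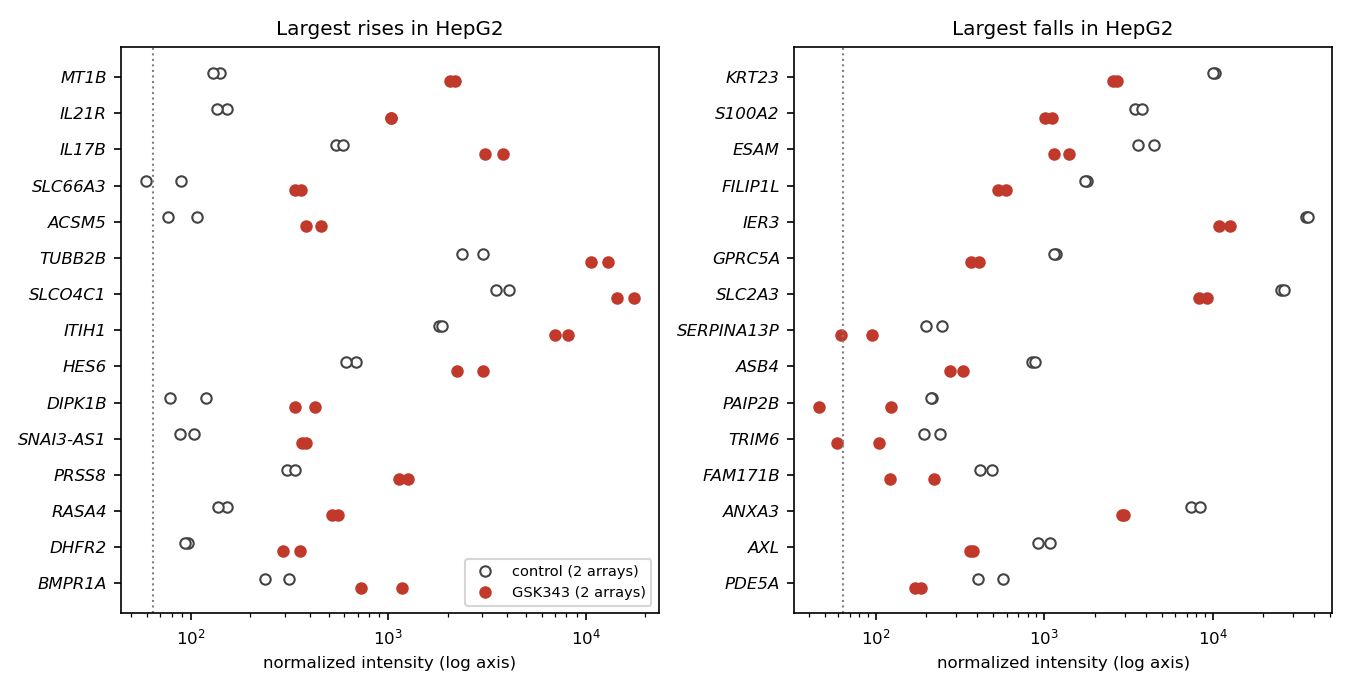
Normalized intensity (log axis) on each of the 4 HepG2 arrays for the 15 genes with the largest called rise (left) and the 15 with the largest called fall (right), with open circles for the 2 control arrays, filled circles for the 2 treated arrays and a dotted line at 64. The pairs of arrays do not overlap in any gene shown, which the rule that chose the genes required. In 3 of the falls (SERPINA13P, PAIP2B and TRIM6) a treated array drops below 64.

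Metallothioneins are small cysteine-rich proteins that bind zinc and copper, and their genes are switched on by the zinc sensor MTF1 through metal response elements in their promoters. MT1B stood apart from its relatives in HepG2. MT2A, a widely expressed form, read 118667 and 128531 in controls and 135278 and 148213 in treated cells (0.20 ± 0.10, adjusted p = 0.256), and MT1E read 100717 and 95224 in controls and 81362 and 91322 in treated cells (-0.18 ± 0.11, adjusted p = 0.323). MT1X read 43052 and 41763 in controls and 39697 and 45000 in treated cells, so its groups overlapped. MT1A gave 0.06 ± 0.13 and MT3, the brain form, 0.17 ± 0.15, neither called. MTF1 itself was called higher (0.84 ± 0.15, adjusted p = 0.0161) and MT4, a form of stratified epithelium, lower (-0.80 ± 0.13), with the call lost for MTF1 without the first treated or first control array (highest adjusted p = 0.0912) and for MT4 without the first treated, second treated or first control array (highest adjusted p = 0.0681). The second probe of MTF1 gave 0.28 ± 0.14 and was not called. Of 8 bright members, MTF1 counted among them, 2 were called higher and 1 lower, beside 5.89% and 3.98% of all bright genes, and their median was 0.12, or -0.05 with arrays centred on their median. Metallothionein genes are nearly identical in their coding parts, so what a probe named MT1B binds is uncertain, and probe sequences were not used here. MT1B had 1 probe.

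The promoters of MT1B and of 2 relatives that were not called are shown because they share the element that the metal sensor binds. Each is the 250 bases before the annotated start, from RefSeq on build GRCh38.p14, forward strand: MT1B at chr16:56651636-56651885, MT1X at chr16:56682220-56682469 and MT2A at chr16:56608334-56608583. Capitals mark each match to TGCACNC or TGCGCNC on either strand, so a match on the reverse strand reads as its reverse complement.
MT1B: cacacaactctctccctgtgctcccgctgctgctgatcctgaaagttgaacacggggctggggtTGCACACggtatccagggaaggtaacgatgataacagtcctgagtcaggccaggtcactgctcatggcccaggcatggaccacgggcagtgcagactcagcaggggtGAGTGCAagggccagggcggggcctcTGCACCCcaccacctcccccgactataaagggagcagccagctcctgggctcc
MT1X: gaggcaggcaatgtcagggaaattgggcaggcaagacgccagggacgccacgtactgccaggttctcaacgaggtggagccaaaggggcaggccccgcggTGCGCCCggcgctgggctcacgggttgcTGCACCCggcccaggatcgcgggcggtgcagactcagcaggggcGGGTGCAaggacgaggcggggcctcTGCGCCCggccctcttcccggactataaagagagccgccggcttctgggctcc
MT2A: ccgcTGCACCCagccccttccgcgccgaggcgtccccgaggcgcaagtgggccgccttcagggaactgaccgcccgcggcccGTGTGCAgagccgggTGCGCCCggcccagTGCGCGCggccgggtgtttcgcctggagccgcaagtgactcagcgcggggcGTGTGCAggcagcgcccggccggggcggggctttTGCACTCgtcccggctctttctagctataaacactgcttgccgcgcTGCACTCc
The windows held 3 matches in MT1B, 4 in MT1X and 7 in MT2A. Of 35116 promoter windows of the same length, 24.8% held at least 1 match, 1.58% at least 3 and 0.37% at least 4. MT1B, the gene that rose, held the fewest matches of these 3, and its matches from -79 to -73 and from -53 to -47 before the start lay within 1 base of those in MT1X.

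The largest called falls were found in genes of epithelial structure, signalling and glucose entry. KRT23, an acidic keratin, read 10281 and 10073 in controls and 2554 and 2706 in treated cells (-1.95 ± 0.12, adjusted p = 0.000394). S100A2, a calcium-binding protein of epithelia, read 3483 and 3789 in controls and 1110 and 1014 in treated cells (-1.78 ± 0.15, adjusted p = 0.000794). ESAM, an adhesion molecule of tight junctions, read 4508 and 3605 in controls and 1399 and 1144 in treated cells (-1.67 ± 0.18, adjusted p = 0.00244). The treated levels were 3.87, 3.42 and 3.19 times lower in turn, with a gap between the groups wider than that between arrays of a group. GPRC5A, a retinoic acid-induced membrane receptor, went from 1174 and 1145 to 408 and 369 (-1.58 ± 0.12), and ANXA3, a calcium-dependent membrane-binding protein, from 7458 and 8362 to 2967 and 2893 (-1.43 ± 0.17). ASB4, a substrate adaptor for ubiquitin ligation, gave -1.52 ± 0.13 on its representing probe, and its second probe was dim. The further falls of the first 15 by size, SERPINA13P, PAIP2B, TRIM6, FAM171B and PDE5A, started from low control levels. The dimmer second probe of PAIP2B was called in the opposite direction (1.28 ± 0.33), and that of PDE5A gave -0.10 ± 0.41 and was not called. The call was lost for SERPINA13P without the second treated or second control array (highest adjusted p = 0.0682), for PAIP2B without the second treated, first control or second control array or 4 of the PLC5 arrays (0.144), for TRIM6 without the second control array (0.0622), for FAM171B without the first treated, first control or second control array (0.0876) and for PDE5A without the first treated, second treated or second control array (0.0762).

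Genes that feed back on MAP kinase signalling were the list with the largest share of falls. This pathway carries signals from growth factor receptors through Ras to ERK, and its activity is commonly read from the phosphatases and inhibitors that ERK induces. Of 24 bright members, 10 were called lower and 1 higher, with a median of -0.40 against -0.02 over all bright genes, and 4 falls were kept without each array. IER3, an early response gene that modulates ERK and cell survival, read 36058 and 36618 in controls and 12737 and 10976 in treated cells (-1.62 ± 0.15, adjusted p = 0.00139). DUSP5, a nuclear ERK phosphatase, went from 1808 and 1710 to 731 and 831 (-1.17 ± 0.12, adjusted p = 0.00177). SPRY4, a Sprouty inhibitor of receptor signalling, went from 1872 and 1949 to 942 and 989 (-0.98 ± 0.12), with -1.06 ± 0.17 on its second probe. In all 3 both treated arrays lay below both controls, as in every bright gene called lower. PHLDA1 fell by 0.87 on its representing probe (27030 and 29288 against 15995 and 14862), but its second probe gave -0.27 ± 0.16 and was not called.

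The other members called lower were smaller changes that are named after their values were seen: SPRY1 (-0.55 ± 0.12), SPRY2 (-0.61 ± 0.14), DUSP1 (-0.52 ± 0.12), DUSP14 (-0.56 ± 0.11), the ETS factor ETV4 (-0.56 ± 0.10) and cyclin D1, CCND1 (-0.42 ± 0.10). Each of these calls was lost without at least 1 array: SPRY1 without each HepG2 array in turn (highest adjusted p = 0.162), SPRY2 without each HepG2 array in turn (0.151), DUSP1 without each HepG2 array in turn or 2 of the PLC5 arrays (0.187), DUSP14 without each HepG2 array in turn (0.128), ETV4 without each HepG2 array in turn (0.0907) and CCND1 without each HepG2 array in turn or 2 of the PLC5 arrays (0.175). ETV4 read 54622 and 49185 in controls and 36930 and 33356 in treated cells. DUSP6, the cytoplasmic ERK phosphatase often taken as the pathway's readout, gave -0.22 ± 0.13 (adjusted p = 0.306) and ETV5 -0.27 ± 0.17, neither called. DUSP9 was the only member called higher (0.66 ± 0.13), and its call was lost without each HepG2 array in turn (highest adjusted p = 0.11). ETS2, an ETS factor outside the list, was called lower by both of its probes (-0.75 and -0.77), the brighter one not without each HepG2 array in turn (highest adjusted p = 0.115).

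Immediate early genes are transcribed within minutes of a stimulus without new protein synthesis. Of 34 bright members, 8 were called lower and 1 higher, with a median of -0.29, and 2 falls were kept without each array. EGR1, a zinc finger factor and the standard readout of acute ERK activity, read 3841 and 4018 in controls and 1469 and 1503 in treated cells (-1.40 ± 0.12, adjusted p = 0.000718). The treated level was 2.64 times lower, and the arrays of each group lay close together. MAFK, a small Maf factor, gave -0.98 ± 0.11 on its representing probe, while its 2 dimmer probes gave -0.37 and -0.09 and were not called. FOSL1, a partner of JUN in AP-1, gave -0.96 ± 0.18 and KLF6 -0.72 ± 0.13, lost for FOSL1 without the second treated, first control or second control array (highest adjusted p = 0.0932) and for KLF6 without each HepG2 array in turn (0.0903). KLF6 was called lower on its second probe too (-0.65 ± 0.11), while its 2 dimmer probes gave 0.20 ± 0.24 and -0.38 ± 0.20 and were not called. MYC, which is on the Wnt list here as well, was the member called higher (0.58 ± 0.14), lost without each HepG2 array in turn or 2 of the PLC5 arrays (highest adjusted p = 0.198).

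The promoter of EGR1 is shown because serum response factor, which couples ERK to the early genes, binds CArG boxes there. It is the 250 bases before the annotated start at chr5:138465229-138465478, forward strand, GRCh38.p14, from RefSeq, with capitals for the CArG boxes, a pair of C, then 6 bases that are each A or T, then a pair of G.
EGR1: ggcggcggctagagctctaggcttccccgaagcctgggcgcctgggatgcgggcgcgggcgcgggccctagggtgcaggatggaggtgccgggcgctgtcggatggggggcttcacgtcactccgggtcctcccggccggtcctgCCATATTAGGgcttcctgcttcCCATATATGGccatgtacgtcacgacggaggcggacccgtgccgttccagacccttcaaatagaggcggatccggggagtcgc
The window held 2 such boxes, each of which reads as a CArG box on both strands. Of 35116 windows of this length, 1.16% held at least 1 box and 0.0313% at least 2. IER3 and DUSP5 are named only. A box is a description of these letters and says nothing of whether the factor was bound in these cells.

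Targets of YAP and of SRF, the factors that answer to cell spreading, stretch and actin assembly, were lower in a like share. Of 31 bright members, 10 were called lower and 1 higher, with a median of -0.35, and 4 falls were kept without each array. AXL, a receptor tyrosine kinase and YAP target, read 1085 and 919 in controls and 364 and 380 in treated cells (-1.43 ± 0.14, adjusted p = 0.00143). FHL2, a LIM protein that binds actin-linked factors, went from 5607 and 5979 to 2186 and 2386 (-1.34 ± 0.14, adjusted p = 0.00232). CAVIN2, which shapes caveolae, fell on both probes, by 1.23 on the representing probe (3888 and 3922 against 1550 and 1801) and with -1.16 ± 0.16 on the other. Control and treated arrays did not overlap in any of the 3, as in every called bright gene. THBS1, the matrix protein thrombospondin 1, gave -0.95 ± 0.12, and CCN2, the best-known YAP target, -0.75 ± 0.12 with the call lost without the first treated or second control array (highest adjusted p = 0.0654). YAP1 itself (-0.05 ± 0.09) and its partner TEAD1 (-0.20 ± 0.13) were not called.

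Genes of the actin cytoskeleton, of focal adhesions and of their regulation were lower in 6 of 39 bright members and higher in 1, with a median of -0.21. FILIP1L, a filamin-interacting protein linked to cell migration, accounted for the largest of these falls, from 1791 and 1758 to 533 and 596 (-1.66 ± 0.13, adjusted p = 0.000631). ITGA2, the collagen-binding integrin chain, fell on both probes, from 2615 and 2562 to 1275 and 1240 on the representing one (-1.04 ± 0.12) and by 1.43 on the other, in a list of integrins, laminins and collagens with 4 of 42 bright members called in each direction. EPHA2, an ephrin receptor of epithelial cells, went from 4603 and 4793 to 2133 and 2146 (-1.13 ± 0.11, adjusted p = 0.00139), in a list of receptor tyrosine kinases and ligands with 6 of 63 higher and 3 lower. The falls of FILIP1L, ITGA2 and EPHA2 were kept without each array, and that of ITGA2 was lost without normalization.

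Cell junction genes moved in both directions, with 4 of 42 bright members called higher and 5 lower, beside 5.89% and 3.98% of all bright genes. CLDN1, a tight junction claudin, read 23338 and 21054 in controls and 11367 and 11411 in treated cells (-0.96 ± 0.10, adjusted p = 0.00189), whereas TJP3, a scaffold of the same junctions, read 442 and 448 in controls and 817 and 908 in treated cells (0.95 ± 0.13, adjusted p = 0.00608). CLDN6, an embryonic claudin, was lower by both probes (-0.95 and -0.66), and CDH1, E-cadherin, higher (0.78 ± 0.14). The call was lost for CLDN6 without the first treated, second treated or second control array (highest adjusted p = 0.0795) and for CDH1 without the first treated, first control or second control array (0.0886). Of 15 bright S100 genes, 4 were called lower and 0 higher, with a median of -0.12. S100A3 fell from 4944 and 4845 to 2468 and 2326 (-1.03 ± 0.11), and S100A6 and S100A16 gave -0.59 ± 0.11 and -0.64 ± 0.15, the first lost without each HepG2 array in turn (highest adjusted p = 0.102) and the second without each HepG2 array in turn or 2 of the PLC5 arrays (0.144). The second probe of S100A16 gave 0.20 ± 0.21, of the opposite sign and not called. The groups overlapped in S100A10 (0.08 ± 0.16). Of 14 bright members of a list of keratins and the intermediate filament gene VIM, 2 were lower and 1 higher, and KRT19, a keratin of bile duct and progenitor cells, did not pass the test (0.05 ± 0.11).

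Among tubulins, 1 gene rose strongly. TUBB2B, a neuronal and fetal beta-tubulin, read 3008 and 2361 in controls and 13002 and 10676 in treated cells (2.14 ± 0.17, adjusted p = 0.000656). Its close copy TUBB2A read 49485 and 52055 in controls and 42602 and 39620 in treated cells (-0.30 ± 0.10, adjusted p = 0.0993), although a probe for one copy may bind the other. TUBB3 gave 0.21 ± 0.10 and TUBA1B 0.02 ± 0.08, neither called. TUBB6 was called lower (-0.78 ± 0.14), lost without the first treated, second treated or second control array (highest adjusted p = 0.0892). Of 20 bright members, 1 was called higher and 1 lower, with a median of -0.02, equal to that of all bright genes.

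TGF-beta and BMP signalling genes were called lower in 9 of 50 bright members and higher in 2, with a median of -0.07. TGFBR3, the co-receptor betaglycan, fell on both probes, from 66977 and 66538 to 36800 and 38732 (-0.82 ± 0.10) and by 0.94 on the second. BMP4, a secreted morphogen, went from 22994 and 23032 to 13198 and 11722 (-0.89 ± 0.12, adjusted p = 0.00608). ID1, a direct target of BMP signals, went from 195929 and 195152 to 131699 and 128531 (-0.59 ± 0.08), and with these it makes up the falls of the list that were kept without each array. In the Notch list, 3 of 24 bright members were higher and 2 lower. HES6, a factor that opposes the Notch effector HES1, rose from 683 and 614 to 3018 and 2239 (2.00 ± 0.19, adjusted p = 0.00139), and the ligand JAG1 fell from 3632 and 4141 to 1992 and 1890 (a level 2 times lower, adjusted p = 0.00537). NOTCH1 was called higher and NOTCH2 lower (0.89 ± 0.16 and -0.75 ± 0.16), both lost without each HepG2 array in turn (highest adjusted p = 0.0849 and 0.139). The second probe of NOTCH2 gave 0.32 ± 0.14, of the opposite sign and not called. Of the 39 bright Wnt feedback and target genes, 5 were higher and 2 lower, with a median of 0.14. The ligand gene WNT11 gave 0.86 ± 0.13 and the antagonist DKK1 -0.77 ± 0.15, lost for WNT11 without the second treated array (adjusted p = 0.0631) and for DKK1 without each HepG2 array in turn (highest adjusted p = 0.103).

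Genes of inflammation were called lower more often than all bright genes (3.98%), and called higher at about the share of all bright genes (5.89%). Of 50 bright interleukin and receptor genes, 8 were called lower and 3 higher, with a median of -0.10, the rises including IL21R and IL17B above. IL11, a cytokine of the interleukin 6 family, read 506 and 504 in controls and 247 and 233 in treated cells (-1.07 ± 0.15, adjusted p = 0.00611), a call lost without normalization. CCL20, a chemokine for lymphocytes and an NF-kB target, read 126502 and 126746 in controls and 70901 and 57024 in treated cells (-0.99 ± 0.12, adjusted p = 0.00408). In the list of NF-kB targets and chemokines, 6 of 32 bright members were lower and 2 higher. ICAM1, an adhesion molecule for leukocytes, and TNFAIP3, which ends NF-kB signalling, gave -0.68 ± 0.12 and -0.66 ± 0.14, lost for ICAM1 without the first treated, second treated or second control array (highest adjusted p = 0.104) and for TNFAIP3 without each HepG2 array in turn (0.119).

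Of 34 bright interferon-stimulated genes, 5 were higher and 0 lower by limma, or 9 and 1 with p under 0.05 before adjustment, and the median was 0.10. With arrays centred on their median 2 were higher and 0 lower, and leaving out 1 array gave 0 to 4 higher and 0 to 1 lower. IFIT5, an RNA-binding sensor, gave 1.00 ± 0.18 and ISG15, a ubiquitin-like modifier, 0.59 ± 0.13, lost without the second treated array (adjusted p = 0.0892) and without each HepG2 array in turn (highest adjusted p = 0.141), and none of the 5 kept its call without each array. Of 22 bright antigen presentation genes, 5 were higher and 0 lower (5 and 2 with p under 0.05 before adjustment), and the median of 0.02 was -0.02 with arrays centred on their median, where 2 were higher and 1 lower. HLA-DMA, a chaperone that loads class II molecules, read 96.8 and 107 in controls and 257 and 256 in treated cells (1.33 ± 0.12, adjusted p = 0.00107). CIITA, the class II transactivator, CD74, the invariant chain, and the stress ligands MICA and MICB made up the other calls, at 0.71 ± 0.18, 0.52 ± 0.11, 0.82 ± 0.12 and 0.53 ± 0.11, lost for MICA without the second treated array (adjusted p = 0.0551), for MICB and CD74 without each HepG2 array in turn (highest 0.115 and 0.163) and for CIITA without each of the 8 arrays in turn (highest 0.168). The second probe of CD74 gave 0.13 ± 0.11 and was not called.

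Of 38 bright genes of glycolysis and glucose entry, 7 were called lower and 5 higher, with a median of -0.11. SLC2A3, the high-affinity glucose carrier GLUT3, read 25372 and 26705 in controls and 9201 and 8292 in treated cells (-1.58 ± 0.10, adjusted p = 0.000394), with -1.15 ± 0.11 on its second probe. SLC2A1, the common carrier GLUT1, gave -1.16 ± 0.16, a call lost by the smallest margin without the first treated array (adjusted p = 0.0501). SLC2A2, the hepatocyte carrier GLUT2, gave -0.23 ± 0.15 without a call, and SLC2A6, a carrier of lysosomes, rose from 1817 and 2063 to 3535 and 4446 (1.03 ± 0.15, adjusted p = 0.00721). PFKP, the platelet form of phosphofructokinase, fell from 3336 and 3528 to 1586 and 1254 (-1.28 ± 0.15, adjusted p = 0.00335), while ALDOC, a brain aldolase, was called higher by both probes (0.69 and 0.85), the brighter one not without the first treated, second treated or first control array (highest adjusted p = 0.0947). HK2, a hexokinase of the first step, read 26535 and 21816 in controls and 22593 and 22307 in treated cells (-0.10 ± 0.21, adjusted p = 0.791), and PFKFB3, which makes an activator of phosphofructokinase, gave -0.55 ± 0.16 (adjusted p = 0.0697), neither called. PCK1, the first enzyme of glucose synthesis, was higher by 0.82 ± 0.12 (adjusted p = 0.0631 without the first treated array).

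Fatty acid oxidation genes were called higher in 5 of 34 bright members and lower in 0, with a median of 0.14 that was -0.01 with arrays centred on their median. CPT1A, the carrier enzyme that admits fatty acids into mitochondria, read 2280 and 2215 in controls and 4179 and 3816 in treated cells (0.83 ± 0.10, adjusted p = 0.00398), and its dimmer second probe gave 0.26 ± 0.16. ETFDH, which passes electrons from that pathway to ubiquinone, gave 0.94 ± 0.15 (adjusted p = 0.0668 without the first treated array). Among nuclear receptors that govern lipid genes, PPARA, the fatty acid sensor, RXRA, its partner, NR1H3, the oxysterol sensor, and ESRRA were called higher (0.61 ± 0.12, 0.79 ± 0.12, 0.68 ± 0.16 and 0.70 ± 0.17), in a list with 6 of 38 bright members higher and 3 lower. Without the first treated array the call of RXRA was lost (adjusted p = 0.071), and without each HepG2 array in turn those of PPARA, NR1H3 and ESRRA (highest 0.12, 0.169 and 0.205). The further probes of PPARA gave 0.26 and -0.04 and that of NR1H3 0.38, none of them called. LIPA, the lysosomal acid lipase, and NPC2, the lysosomal sterol carrier, rose from 32677 and 31157 to 51395 and 56604 (0.76 ± 0.10) and from 43295 and 44431 to 75235 and 70550 (0.73 ± 0.09), with 0.82 ± 0.16 on the second probe of NPC2. TMEM135, a protein of peroxisomes and mitochondria, rose on both probes (1.24 and 0.87), and so did MMAB, which makes the active form of vitamin B12 (1.06 and 1.55).

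Among secreted liver proteins, single genes changed in both directions. ITIH1, a heavy chain of the inter-alpha-trypsin inhibitor that binds hyaluronan, read 1811 and 1880 in controls and 8176 and 6975 in treated cells (2.03 ± 0.15, adjusted p = 0.000525), and its second probe gave 1.85 ± 0.12. The other chains were not called: ITIH2 gave -0.27 ± 0.09, ITIH3 0.18 ± 0.22 and ITIH4 -0.10 ± 0.17. CP, the copper-carrying ferroxidase ceruloplasmin, fell from 6122 and 7116 to 2917 and 2717 (-1.23 ± 0.15, adjusted p = 0.00356), with -1.17 ± 0.12 on the second probe. MBL2, mannose-binding lectin, fell from 2341 and 2316 to 1150 and 1123 (-1.03 ± 0.13), and APOA5, an activator of triglyceride clearance, rose from 1385 and 1269 to 2686 and 2717 (1.03 ± 0.14, adjusted p = 0.00612). Of 17 bright apolipoproteins, 3 were higher and 0 lower, with a median of 0.24, and APOE gave 0.79 ± 0.11 (adjusted p = 0.0571 without the first treated array). Albumin (0.31 ± 0.11), alpha-fetoprotein (AFP, -0.06 ± 0.11), APOA1 (0.01 ± 0.10) and SERPINA1 (0.10 ± 0.08) did not pass the test. Over 25 bright major plasma proteins, 1 was higher and 3 were lower.

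Cytochrome P450 genes were higher in 4 of 31 bright members and lower in 2, with a median of 0.18. All bright genes were called higher in 5.89% and lower in 3.98%. CYP1A1, the enzyme that the aryl hydrocarbon receptor induces most, read 834 and 852 in controls and 2518 and 2100 in treated cells (1.45 ± 0.13, adjusted p = 0.000894). AHR, that receptor, was called lower by both probes (-0.44 and -0.79), the brighter one (adjusted p = 0.0428) not without each HepG2 array in turn or 3 of the PLC5 arrays (highest 0.193), and CYP1B1, another of its targets, was not called (-0.41 ± 0.21). CYP4F2, which oxidises vitamins E and K and long fatty acids, rose from 2878 and 2907 to 6327 and 5755 (1.06 ± 0.11, adjusted p = 0.00217). CYP24A1, which inactivates vitamin D, fell from 5586 and 5133 to 2035 and 2018 (-1.40 ± 0.19, adjusted p = 0.00614), and the vitamin D receptor VDR gave -0.68 ± 0.14, lost without each HepG2 array in turn (highest adjusted p = 0.121). SULT1C2, a sulfotransferase, rose from 1635 and 1540 to 3506 and 3666 (1.18 ± 0.13). Its second probe read 370 and 398 in HepG2 controls and 975 and 1013 in treated HepG2 cells, close together within each group. This probe gave 1.37 with a standard error of 1.76 and was not called. That error also takes in the spread of the PLC5 arrays, which share the fit, and its source was not tested. DBP, a clock-driven factor that acts on P450 genes, rose on both probes, from 117 and 93.9 to 301 and 316 on the brighter one (1.56 ± 0.15, adjusted p = 0.00146). Of 22 bright clock genes, DBP included, 3 were called higher and 1 lower, with a median of -0.06. PER3, of the core clock, was called higher (0.44 ± 0.11) and CSNK1E, a kinase of PER proteins, lower (-0.44 ± 0.11), lost for PER3 without each HepG2 array in turn or 4 of the PLC5 arrays (highest adjusted p = 0.176) and for CSNK1E without each HepG2 array in turn or 2 of the PLC5 arrays (0.185). The second probe of CSNK1E gave 0.43 ± 0.20, of the opposite sign and not called. PER1 (-0.07 ± 0.14), NR1D1 (0.05 ± 0.17) and BMAL1 (0.18 ± 0.13) did not pass.

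Of 58 bright lysosome genes, 7 were called higher and 2 lower, with a median of 0.11 that was -0.02 with arrays centred on their median, where 3 were higher and 4 lower. Of 48 autophagy genes, 6 were higher and 1 lower, with a median of -0.02. Both lists stand beside 5.89% higher and 3.98% lower of all bright genes. TP53INP1, a stress-induced protein of autophagy and a p53 target, read 7293 and 7458 in controls and 12234 and 12990 in treated cells (0.77 ± 0.10, adjusted p = 0.00408). The p53 targets as a list had 5 of 29 members called in each direction. In the BCL2 family, 3 of 19 bright members were higher and 2 lower. BMF, a pro-death member released from the cytoskeleton, was called higher by both probes (0.75 and 1.48), and the pro-survival genes MCL1 and BCL2L1 were called lower (-0.66 ± 0.12 and -0.64 ± 0.10), lost for BMF without the first treated or second treated array (highest adjusted p = 0.0648) and for MCL1 and BCL2L1 without each HepG2 array in turn (0.0911 and 0.0648). FOXO targets had a median of 0.28, with 5 of 28 higher and 4 lower, none of which kept its call without each array.

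Ribosome biogenesis genes, which build ribosomes in the nucleolus, were called lower in 10 of 47 bright members and higher in 0, with a median of -0.28 that was -0.40 with arrays centred on their median. RRP12, a factor for export of the small subunit, read 8988 and 9708 in controls and 5331 and 4919 in treated cells (-0.87 ± 0.11, adjusted p = 0.00537), and it alone of the 10 kept its call without each array. MYBBP1A and RRP9 gave -0.78 ± 0.13 and -0.72 ± 0.12, both lost without the first treated, second treated or second control array (highest adjusted p = 0.0824 and 0.0821). The second probe of MYBBP1A gave -0.24 ± 0.18 and was not called. Proteasome genes were lower in 4 of 42 and higher in 0, with a median of -0.15, and none of these 4 calls was kept without each array. The cytosolic ribosomal proteins had 4 of 64 members called in each direction. These lists stand beside 5.89% higher and 3.98% lower of all bright genes. RPS10 fell from 7251 and 6570 to 4009 and 3971 (-0.79 ± 0.11), while RPL12 gave 0.89 ± 0.13, lost without the first treated array (adjusted p = 0.0591), and ribosomal protein genes have many near-identical pseudogenes that a probe may bind.

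Cell cycle genes were called at shares that are read beside the 5.89% higher and 3.98% lower of all bright genes. Of 43 bright DNA replication genes, 3 were lower and 0 higher, and of 52 mitosis genes 2 were higher and 3 lower. KIF18A, a kinesin that limits chromosome movement, rose from 104 and 81.1 to 242 and 277 (a level 2.82 times higher, adjusted p = 0.00305). CDKN2B, an inhibitor of CDK4 and CDK6 that PRC2 is known to silence, fell rather than rose, from 685 and 611 to 303 and 310 (-1.08 ± 0.13, adjusted p = 0.0037), and its dimmer second probe gave -0.80 ± 0.24. The fall of CDKN2B was lost without normalization.

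PRC2 and the genes known as its targets were read beside the same shares of all bright genes. Of 12 bright PRC2 subunits limma called 0. The median was -0.13, and before adjustment p was under 0.05 for 1 that was higher and 2 that were lower. EZH2, the target of the compound, read 8643 and 9562 in controls and 7651 and 6937 in treated cells (-0.32 ± 0.11, adjusted p = 0.117), and EED, the subunit that reads the mark, 7934 and 8194 in controls and 11173 and 9963 in treated cells (0.39 ± 0.15, adjusted p = 0.139). The levels of EZH1 (0.10 ± 0.16) and SUZ12 (-0.13 ± 0.12) overlapped between the groups. Without normalization the median of all probes lay at 0.50. EZH2 and SUZ12 were positive there but below that median, so the change of sign does not bear on their direction. RNA levels do not report the enzyme's activity, which was not measured. Of 23 bright tumour suppressor genes reported as silenced by EZH2, 1 was higher (CDH1) and 2 were lower (CDKN2B and DKK1), with a median of -0.08.

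Of 73 bright developmental transcription factors, 4 were called higher and 3 lower, of 110 measured members. FOXD1, a forkhead factor of kidney stroma, read 74.5 and 69.9 in controls and 194 and 217 in treated cells (1.51 ± 0.18, adjusted p = 0.00386). IRX3, a homeobox factor, fell from 4420 and 4521 to 2280 and 2083 (-1.04 ± 0.13, adjusted p = 0.00372), a call lost without normalization. PAX3, a factor of neural crest and muscle, gave 1.24 ± 0.16 on its brightest probe, but its other probes gave 0.47, -1.41 and 0.05, the second of which was called lower, so no direction is given for it. FOXC1 was called higher by both probes (0.79 and 0.47), the brighter one not without each HepG2 array in turn (highest adjusted p = 0.0845). Of 26 bright HOX genes, 2 were higher, HOXA3 (0.55 ± 0.11) and HOXB2 (1.01 ± 0.20), and both lost the call without each HepG2 array in turn (highest adjusted p = 0.111 and 0.113). HOXA3 gave 0.05 ± 0.16 on its second probe, which was not called.

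**Figure D3:**
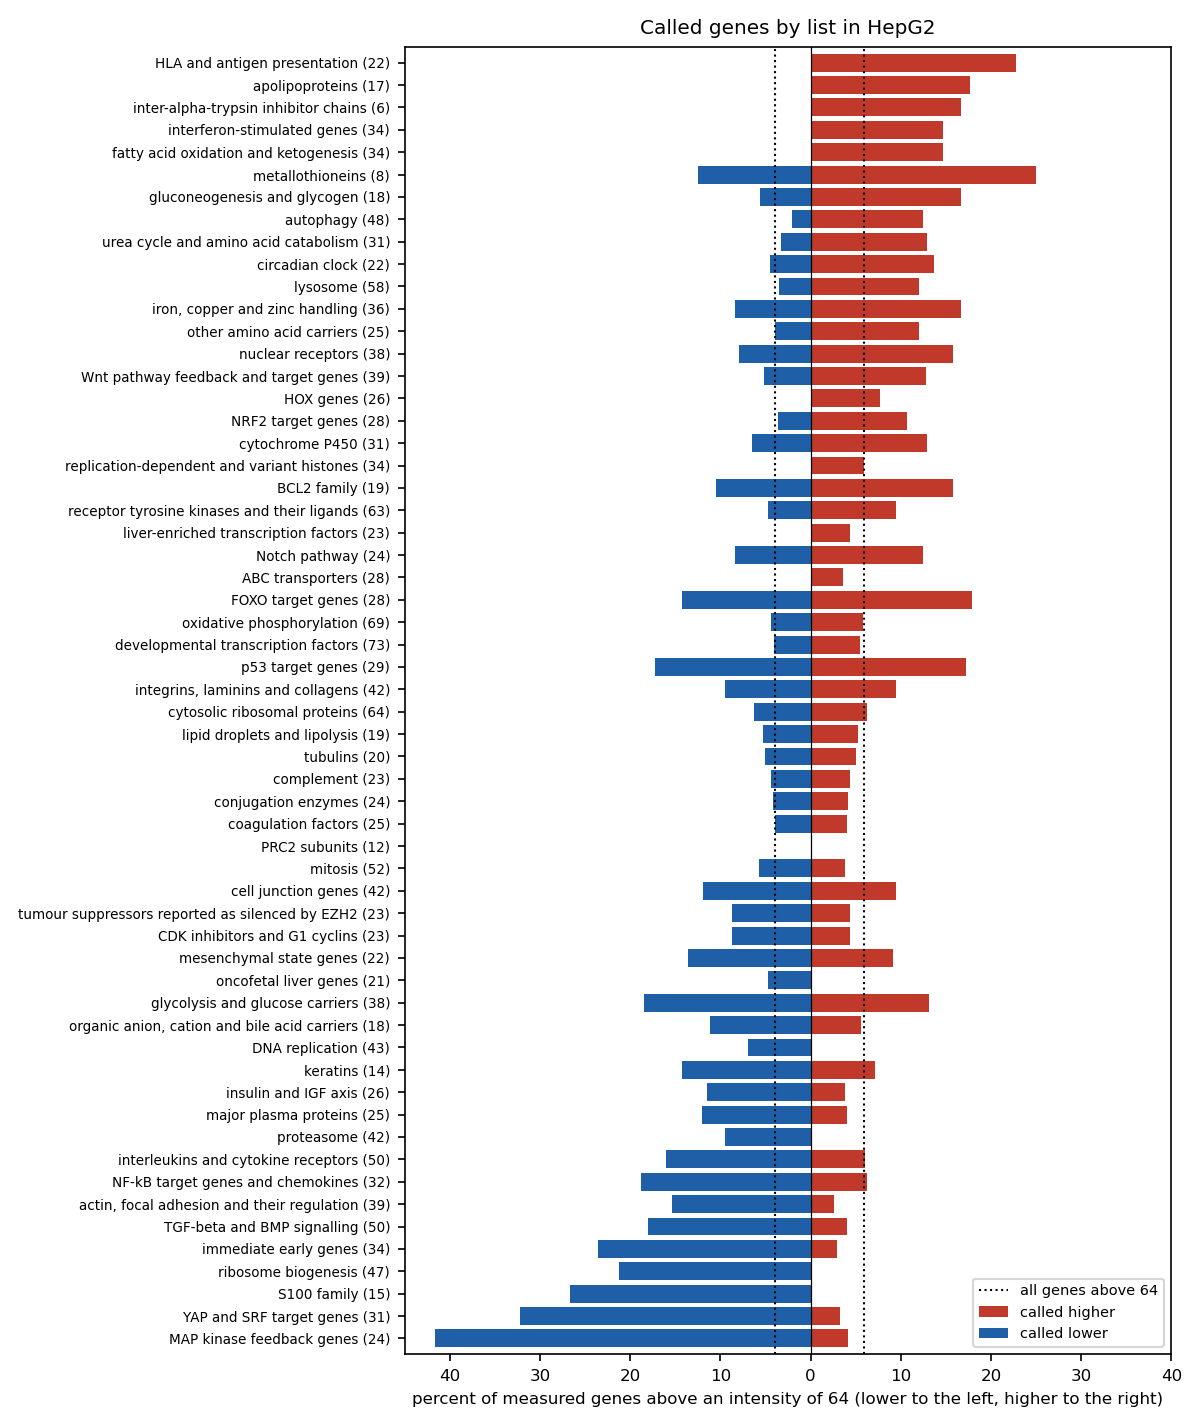
Percent of the bright members of each described list called higher (to the right) and lower (to the left) in treated HepG2 cells, with the number of bright members in brackets and dotted lines at the shares of all bright genes (5.89% and 3.98%). MAP kinase feedback genes (10 of 24) and YAP and SRF targets (10 of 31) extend farthest to the left.

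The agreement of several probes gives a check that does not rest on the choice of 1 probe. Of 3944 genes with at least 2 probes above 64, all probes were called higher in 46 (1.17%) and lower in 25 (0.634%), and 11 of these 71 genes belong to the lists set aside. At least 1 probe was called in 758 genes, so in most of them the probes did not all pass: the signs of the probes were the same in 485 and differed in 273, and 11 genes had probes called in opposite directions. ITIH1 gave the largest agreeing rise outside the lists set aside, with a mean of 1.94 over its probes, followed by MMAB (1.31) and KLHL24 (1.18 over 3 probes), an adaptor for degradation of keratin 14. GLIPR1 gave the largest agreeing fall, with -1.29 and -1.55, followed by SLC2A3 (mean -1.36), ITGA2 (-1.24), CP (-1.20) and CAVIN2 (-1.19). UBASH3B, a phosphatase that silences receptor signalling, gave -1.17 and -0.57. The call of KLHL24 was lost without the first treated array (adjusted p = 0.0672), and the others named here kept theirs on the representing probe.

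**Figure D4:**
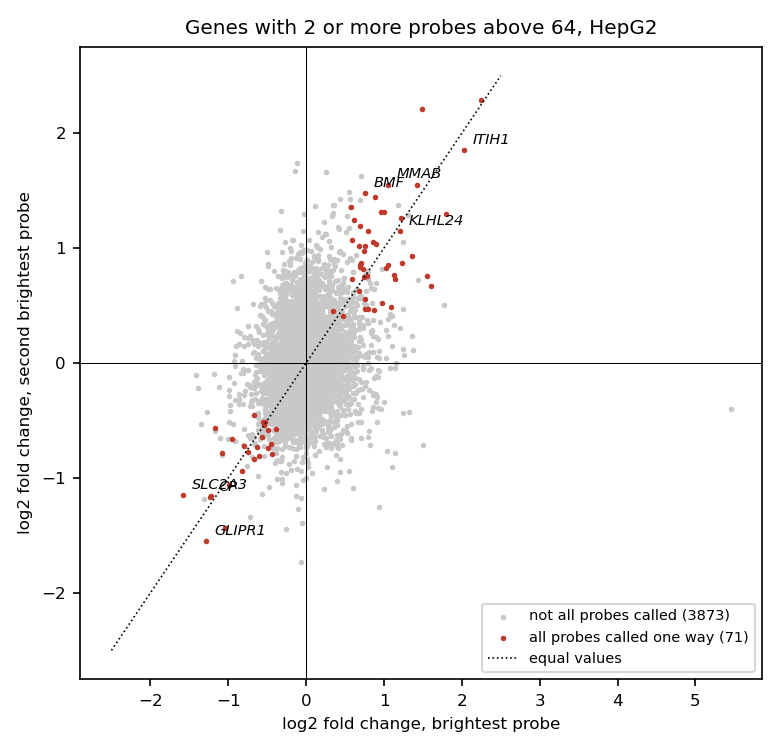
Log2 fold change in HepG2 of the second brightest probe (vertical axis) against that of the brightest probe (horizontal axis) for 3944 genes with at least 2 probes above 64, each point 1 gene and the dotted line equal values. The 71 genes with all probes called one way lie along the line in the upper right and lower left, while most genes gather around 0 without a shared direction.

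The response was compared with that of PLC5, another human liver cancer line, by a test of the difference between the responses in the same fit. Each line had its own controls, while 1 spread per probe was estimated over both. Of 14755 genes above 64 in HepG2, the difference was called for 135 (0.915%), and of the 1456 genes called in HepG2 for 105 (7.21%), 54 of them rises and 51 falls in HepG2. This share was chosen through the HepG2 contrast, so it is a description. MT1B, at 59.5 and 57.9 in PLC5 controls and 69.8 and 66.4 in treated PLC5 cells, gave 0.21 ± 0.14 there, and its difference, PLC5 minus HepG2, was -3.75 ± 0.20 (adjusted p = 0.000381). ITIH1 gave -0.27 ± 0.15 in PLC5 (difference -2.30 ± 0.21, adjusted p = 0.00494) and SLC2A3 0.23 ± 0.10 (difference 1.81 ± 0.14, adjusted p = 0.0028). IGFBP1, a secreted binder of insulin-like growth factors, was called lower in HepG2 (-0.51 ± 0.09), a call lost without each HepG2 array in turn (highest adjusted p = 0.0788), and gave 1.69 ± 0.09 in PLC5 (difference 2.21 ± 0.13, adjusted p = 0.000398). These 4 were the differences among the named genes that were called under every alternative run for them with both lines.

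Several signalling genes that fell in HepG2 differed between the lines. EGR1 gave 0.40 ± 0.12 in PLC5 (difference 1.80 ± 0.16, adjusted p = 0.00513), DUSP5 0.36 ± 0.12 (difference 1.54 ± 0.17, adjusted p = 0.011), AXL 0.57 ± 0.14 (difference 1.99 ± 0.19, adjusted p = 0.00664) and IER3 0.10 ± 0.15 (difference 1.72 ± 0.22, adjusted p = 0.0227). The differences of EGR1 and AXL were lost under some alternatives with adjusted p up to 0.0628 and 0.0658, and those of DUSP5 and IER3 up to 0.0856 and 0.113. For PHLDA1 (-0.43 ± 0.10 in PLC5), THBS1 (-0.88 ± 0.12), CYP1A1 (1.75 ± 0.13), TP53INP1 (0.90 ± 0.10) and SNAI3-AS1 (1.69 ± 0.15) the difference was not called, with adjusted p from 0.186 to 0.866, which does not show that the lines responded alike. RASA4 and IL21R also moved in PLC5, by 1.43 ± 0.12 and 1.63 ± 0.16, with differences that were not called (adjusted p = 0.228 and 0.0563).

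**Figure D5:**
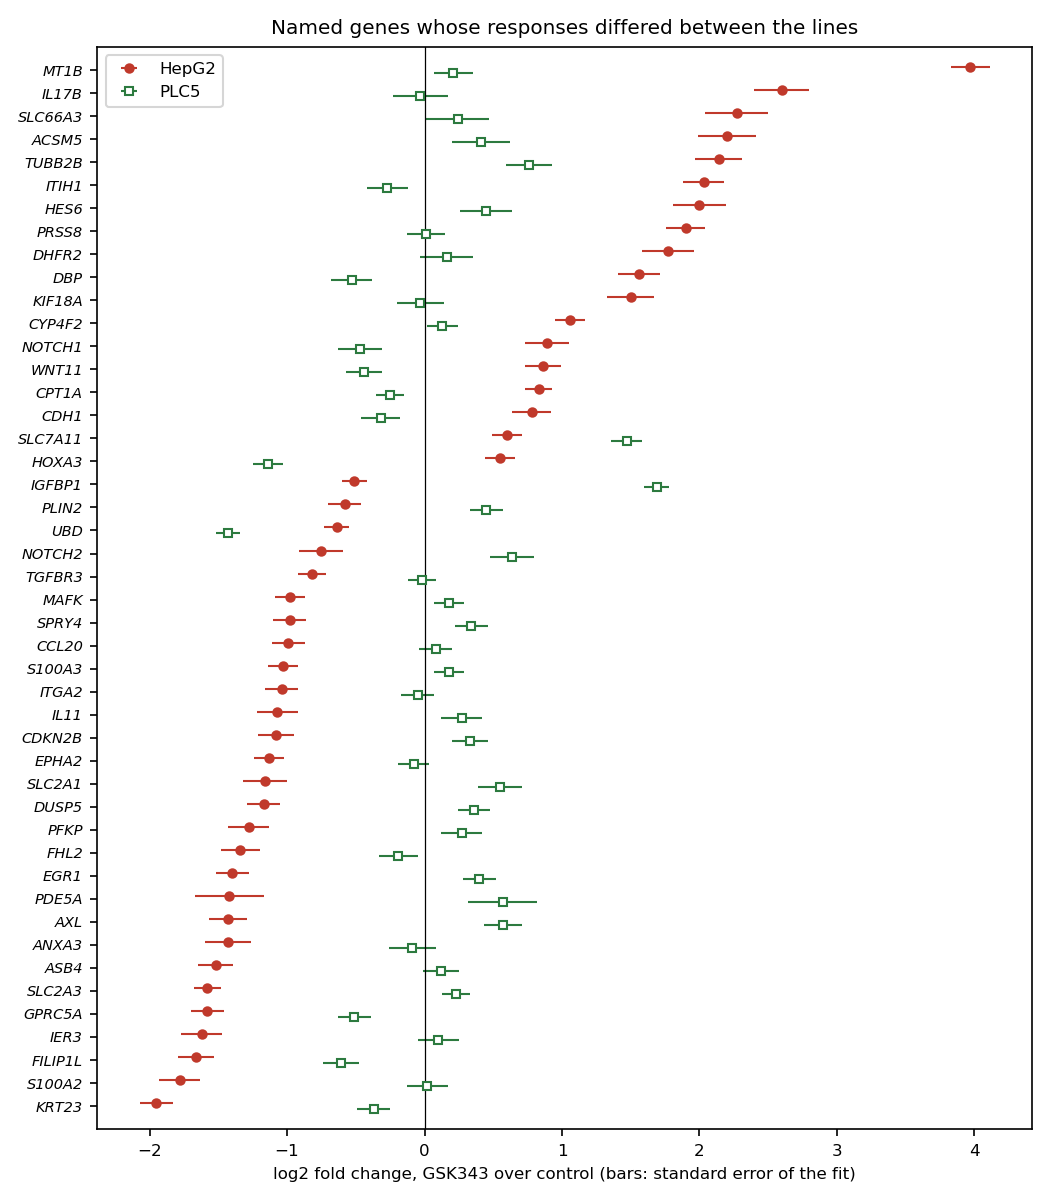
Log2 fold change of treated over control cells, with the standard error of the fit as bars, in HepG2 (filled circles) and PLC5 (open squares) for the 46 named genes whose responses differed between the lines. MT1B lies at 3.97 in HepG2 and 0.21 in PLC5, and in most of the genes the PLC5 value lies nearer to 0 than the HepG2 value, IGFBP1, UBD, HOXA3 and SLC7A11 being exceptions. The genes were named through their HepG2 calls, which favours larger HepG2 values, so this pattern is only a description.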

How the data were processed

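RNA of each sample was amplified, labelled with Cy5 and hybridised to 1 one-colour oligonucleotide array, per the labels' protocols. The deposited intensity of each probe was used as given by the authors: a whole number on a linear scale, not scaled between arrays, with some values at or below 0. No source used here names the scanner software or a background correction. Arrays were quantile-normalized together, values under 1 were set to 1, and log2 was taken. Of 31741 probes, 24740 had 1 gene symbol in the platform annotation, 977 several and 6024 none, and 1948 symbols were updated. limma 3.58.1 (R 4.3.3) was fitted over the 8 arrays with a mean for each group, 4 residual degrees of freedom and eBayes with a trend, and p-values were adjusted by Benjamini-Hochberg over all probes.

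A gene was represented by its brightest probe over the 8 arrays. Named genes were the 15 largest called rises and falls above 64, up to 10 genes in each direction by agreeing probes, and up to 5 called members of each list. The largest rises and falls were taken outside the lists set aside. They also had to have arrays that did not overlap and no other bright probe of opposite sign. Genes named beyond this rule were chosen after their values were seen. The members and lists were chosen with earlier results of these data known. Replicate numbers were not used as pairs in the main fit, and the labels do not say whether they pair the samples. The difference between replicates 1 and 2 of controls correlated with that of treated arrays at r = -0.104 over probes in HepG2 and -0.0205 in PLC5. These values gave no sign of pairing but cannot exclude it. Alternatives were another scaling, floor, pseudocount, brightness limit, probe rule, fit and block, and leaving out each array. The arrays' number limits the precision. The results on 1 further item are not reported here.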

Additional observations from a re-analysis of the deposited data

Results flagged for a closer look

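The response differed between HepG2 and PLC5 for 46 named genes, by limma's test of the difference itself with the adjusted p under 0.05. The values below are the PLC5 response minus the HepG2 response on the log2 scale, from 2 arrays in each group. The genes were named through their HepG2 calls, so the directions given below are only a description. The difference was negative for 18 genes, most of which rose in HepG2, UBD having been called lower there and lower still in PLC5: MT1B (-3.75), IL17B (-2.63), ITIH1 (-2.30), DBP (-2.09), SLC66A3 (-2.02), PRSS8 (-1.89), ACSM5 (-1.79), HOXA3 (-1.69), DHFR2 (-1.61), HES6 (-1.56), KIF18A (-1.52), TUBB2B (-1.39), NOTCH1 (-1.36), WNT11 (-1.30), CDH1 (-1.11), CPT1A (-1.08), CYP4F2 (-0.93) and UBD (-0.79).

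The difference was positive for 28 genes, most of which fell in HepG2. The larger values were those of IGFBP1 (2.21), AXL (1.99), PDE5A (1.99), SLC2A3 (1.81), S100A2 (1.80), EGR1 (1.80), IER3 (1.72), SLC2A1 (1.71), ASB4 (1.63), KRT23 (1.58), PFKP (1.55), DUSP5 (1.54), CDKN2B (1.41) and NOTCH2 (1.39). The smaller values were those of IL11 (1.35), ANXA3 (1.34), SPRY4 (1.33), S100A3 (1.21), FHL2 (1.16), MAFK (1.15), GPRC5A (1.07), CCL20 (1.07), EPHA2 (1.05), FILIP1L (1.04), PLIN2 (1.03), ITGA2 (1.00), SLC7A11 (0.87) and TGFBR3 (0.80). SLC7A11, the cystine carrier, and PLIN2, a coat protein of lipid droplets, are among them. Of the 46 differences, 4 were called under every alternative run for them with both lines.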

How the results depend on the processing

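The number of calls depended on the settings more than the direction of the named genes did. Without an eBayes trend, 1276 probes, 619 bright genes and 32 genes with agreeing probes were called, and the lines differed in 19 probes. Without normalization these counts were 5641, 3424 and 301 for HepG2, where the median of all probes lay at 0.50. With arrays centred on their median the lines differed in 87 probes, and with a floor of 64 in 455. With the replicate number as a block, 690 probes, 413 bright genes and 24 genes with agreeing probes were called, and the lines differed in 13 probes. Whether the numbers pair the samples is not known. With the HepG2 numbers crossed, an alternative chosen after seeing the data, the block gave 45 genes with agreeing probes and a difference in 25 probes. Leaving out 1 array gave 523 to 2262 probes, 260 to 1353 bright genes, 20 to 75 genes with agreeing probes and a difference in 32 to 124 probes, lowest for the HepG2 counts without the first treated array. Of the 241 named genes called, 68 were called whichever of the 8 arrays was left out. Of the 241, 126 were not called with the replicate block, 94 without a trend, 79 without normalization, 72 with a floor of 64 and 65 with arrays centred on their median. Among the 68, those lost without normalization were ITGA2, SPRY4, MBL2, MAFK, THBS1, IL11, CDKN2B, RPS10, RRP12 and IRX3. The sign turned for FTL with arrays centred on their median (-0.05) and, without normalization, for PIK3CB (0.02), EZH2 (0.06) and SUZ12 (0.18). The values without normalization all lay below the median of all probes there, 0.50. Leaving out 1 array gave -0.08 to 0.28 for EZH1 and -0.27 to 0.01 for SUZ12. Why the sign turned for FTL or with an array left out was not tested. With 2 arrays in each group, dim probes had the widest errors, a median standard error of 0.201 for genes from 64 to 256 against 0.116 above 16384.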

Other observations

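The NUDT family of hydrolases, which clear modified nucleotides and related metabolites, was picked after its values were seen. Of 18 bright members, 6 were called higher and 0 lower, with a median of 0.24, beside 5.89% and 3.98% of all bright genes. NUDT14, a hydrolase of sugar nucleotides, read 119 and 104 in controls and 320 and 233 in treated cells (1.30 ± 0.22), NUDT12, of NADH, 114 and 76.9 and 171 and 240 (1.11 ± 0.24), and NUDT7, of peroxisomal coenzyme A, 952 and 1188 and 1958 and 1853 (0.84 ± 0.14). Each was lost without at least 1 array, with highest adjusted p of 0.0759 for NUDT14, 0.156 for NUDT12 and 0.0761 for NUDT7. Of 276 bright long noncoding RNAs, 11 were higher and 5 lower, beside 5.89% and 3.98% of all bright genes.

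In 13 bright genes a change of over 4-fold was not called, and in most of them 1 array stood apart from the other of its group. CAT, the gene of catalase, read 18398 and 19399 in controls but 19570 and 18.1 in treated cells. TMED5, a cargo protein of the secretory pathway, read 32746 and 15.5 in controls and 30628 and 31990 in treated cells. RPUSD2 read 1.12 and 6274 in controls and 6305 and 5539 in treated cells. NMUR1, a neuropeptide receptor, read 13218 and 106 in controls and 78.5 and 80.9 in treated cells. In these 4 genes the average of a group describes neither of its arrays. RBP3 was unlike them, at 2989 and 2793 in controls and 599 and 521 in treated HepG2 cells (-2.37 ± 0.74). Its PLC5 arrays, which share the spread of the fit, read 154 and 987 in controls and 470 and 1332 in treated cells.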
